A study of Mus musculus with 13 samples.

Results

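Stroma of the clone UG26-1B6 that had spent 24 h with haematopoietic cells was compared with stroma of the same clone taken 24 h after a change of medium. The arrays were chosen by their titles, which put 3 in the day 1 co-culture group and 2 in the medium control group, out of 13 arrays in the series. UG26-1B6 is 1 clone of stromal cells, taken from the urogenital ridge of mouse embryos at midgestation. For co-culture, 200000 cells per well were plated, grown to confluence, given 30 Gy of irradiation and seeded with 100000 LSK cells per well. LSK cells lack lineage markers, carry Sca-1 and c-Kit and hold the haematopoietic stem and progenitor cells of the marrow. The medium control received no LSK cells. The sources used here give neither whether it was irradiated, nor how many of its cells were plated, nor how stroma was parted from LSK cells before RNA was taken. Stroma collected with trypsin before co-culture (day 0, 3 arrays) is given beside some values. Irradiation and the presence of LSK cells cannot be told apart in this comparison if only the co-cultured stroma was irradiated.

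Stromal cells of blood-forming tissue hold stem and progenitor cells in place and supply them with secreted factors. Cxcl12 attracts and retains these cells, Kitl is the ligand of the receptor Kit, Vcam1 binds integrins on their surface, and Wnt proteins and their antagonists act between both cell types. Irradiated stroma is widely used as a feeder layer because it stays attached but divides little.

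Values are deposited log2 intensities, with 1 probe set per gene, and differences are co-culture minus medium control ± standard error. Correlations between arrays over probe sets were 0.986 to 0.990 among the co-culture arrays, 0.996 between the medium control arrays and 0.935 to 0.940 between the groups. The mean of 27 poly-A spike-in probe sets, RNA added to each sample before labelling, was 7.53 ± 1.28 in co-culture (SD, n = 3) and 3.26 ± 0.09 in medium control (SD, n = 2). The 3′ minus 5′ difference of the Gapdh control probe sets, a sign of RNA quality, was 2.39 to 3.50 in co-culture and 2.15 to 2.71 in medium control. For the actin control probe sets it was 2.43 to 3.13 in co-culture and 2.18 to 2.30 in medium control, without overlap. The part of these in the results below was not tested. In the fit over 13 arrays, day 2 replicate 1 stood apart, with correlations to other arrays of at most 0.785 and a Gapdh difference of 8.96. Several counts are therefore also given without it.

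Of 12205 genes tested, 635 passed an adjusted p of 0.05 in limma, which is 5.2% of them, with 263 higher (2.15%) and 372 lower (3.05%) in co-culture. Without day 2 replicate 1 there were 2103 (17.2%), 929 higher (7.61%) and 1174 lower (9.62%), and these held all 635. After quantile normalization 372 genes rose and 320 fell. The count was 114, 68 and 51 without co-culture replicate 1, 2 and 3, and 22 and 7 without medium control replicate 1 and 2. Among the 635 genes, 609 differed by at least 2-fold and 81 by at least 8-fold. In 484 of them the co-culture arrays lay outside all medium control and day 0 arrays, and in 450 the medium control arrays lay outside all co-culture and day 0 arrays. Over all genes tested these numbers were 3779 and 3455, and the groups did not overlap in 62.5% of all genes, higher in co-culture in 30.7% and lower in 31.8%. The sample titles call the arrays biological replicates and the design text calls them technical, so the p-values may reflect technical spread alone.

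Cell division genes that passed were lower after 24 h with LSK cells. Of 55 tested genes of mitosis and the spindle, 4 fell (7.27%, against 3.05% of all genes) and none rose. A negative difference was found in 51, and the median over the list was -2.00 on the log2 scale, against 0.00 over all genes. Without day 2 replicate 1, 26 of the 55 fell, where 9.62% of all genes did. The list's median level by array was 6.10, 6.02 and 4.50 in co-culture, against 8.04 and 8.08 in medium control. Replicate 3 of co-culture was the lowest, and the groups did not overlap. The day 0 arrays, at 7.54, 7.09 and 7.36, lay between them. In a bulk sample, fewer cells of a type and less RNA per cell cannot be told apart.

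Ska1, a part of the complex that ties spindle microtubules to chromosomes, had values of 2.60, 2.28 and 2.28 in co-culture, against 5.25 and 5.48 in medium control. It fell by 2.98 ± 0.23 (limma, adjusted p = 0.002), although its other probe sets ranged up to a difference of 0.20. Its day 0 values of 2.97, 2.69 and 2.60 were nearer to those of co-culture. Smc4, a condensin subunit that packs chromosomes, measured 9.06, 9.23 and 8.75 in co-culture and 11.72 and 12.02 in medium control, a difference of -2.85 ± 0.66 (limma, adjusted p = 0.042), and all of its 3 probe sets fell. Aurka, the kinase that matures the spindle poles, had 3.18, 4.76 and 3.28 in co-culture and 6.75 and 6.33 in medium control (limma, adjusted p = 0.044). Kif11, the motor that pushes spindle poles apart, had 2.99, 3.25 and 2.38 in co-culture and 6.92 and 7.24 in medium control, and it fell by 4.20 ± 1.03 (limma, adjusted p = 0.048). The other probe sets of Kif11 gave differences up to -0.12. Mki67, the marker of dividing cells, did not pass. It had 5.90, 6.65 and 3.57 in co-culture and 9.13 and 8.76 in medium control (limma, adjusted p = 0.401, and 0.076 without day 2 replicate 1).

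**Figure D1:**
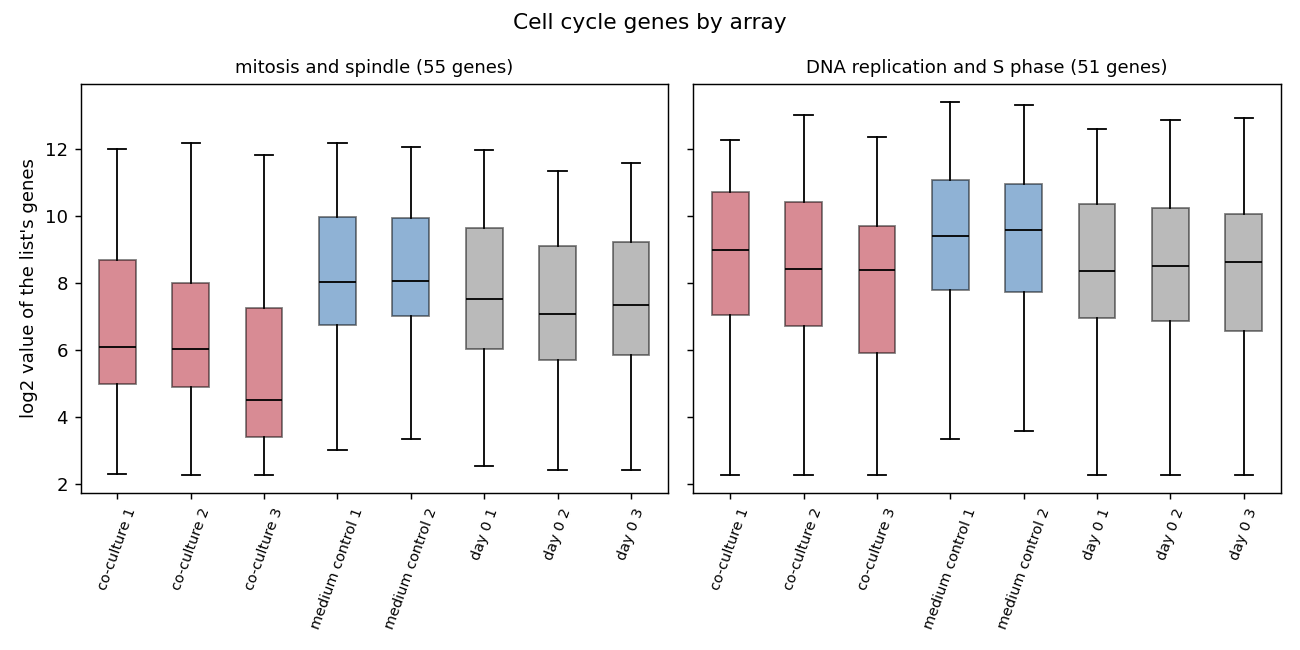
Log2 values of the tested genes of mitosis and the spindle (left) and of DNA replication (right) in each array. Boxes span the quartiles with the median as a line, whiskers reach values within 1.5 times the box, and the medians of the mitosis genes are 4.50 to 6.10 in co-culture, against 8.04 and 8.08 in medium control.

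Genes that copy DNA and passed were lower than in medium control too. Of 51 tested, 4 fell (7.84%, against 3.05% of all genes) and none rose, with a median difference of -1.01. Without day 2 replicate 1, 12 fell, where 9.62% of all genes did. The list's median level was 9.01, 8.42 and 8.38 in co-culture and 9.41 and 9.58 in medium control. The day 0 arrays, at 8.36, 8.51 and 8.62, overlapped co-culture. Pcna, the sliding clamp of DNA polymerase, measured 11.88, 11.39 and 11.31 in co-culture and 13.41 and 13.33 in medium control. It fell by 1.84 ± 0.23 (limma, adjusted p = 0.008). Slbp, which binds the stem-loop of histone mRNAs, had 9.01, 8.66 and 8.56 in co-culture, against 12.66 and 12.06 in medium control (limma, adjusted p = 0.016), while its other probe set differed by 0.58. Prim2, a primase subunit, and Chaf1b, which loads histones behind the fork, fell by 2.22 and 2.58. Day 0 values of Chaf1b, at 5.68, 4.51 and 5.21, overlapped those of co-culture, whereas Pcna at day 0 was 12.60 to 12.94.

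As examples of cell cycle genes that passed, the 250 bases before the start of Kif11, Aurka and Pcna are given from RefSeq (GRCm38.p6), 5′ to 3′ on the strand of the gene. The first lies at chr19:37376132-37376381 on the plus strand, the second at chr2:172370571-172370820 and the third at chr2:132253181-132253430, both on the minus strand. Capitals mark matches on either strand to the CHR (TTTGAA) and to the CCAAT box (CCAAT), letters found in promoters of many cell cycle genes, which do not overlap here.
Kif11: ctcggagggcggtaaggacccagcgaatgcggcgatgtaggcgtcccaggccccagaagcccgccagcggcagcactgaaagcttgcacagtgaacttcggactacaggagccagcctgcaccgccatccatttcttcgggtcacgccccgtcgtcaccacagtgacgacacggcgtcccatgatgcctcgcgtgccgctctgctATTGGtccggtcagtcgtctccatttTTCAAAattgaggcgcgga
Aurka: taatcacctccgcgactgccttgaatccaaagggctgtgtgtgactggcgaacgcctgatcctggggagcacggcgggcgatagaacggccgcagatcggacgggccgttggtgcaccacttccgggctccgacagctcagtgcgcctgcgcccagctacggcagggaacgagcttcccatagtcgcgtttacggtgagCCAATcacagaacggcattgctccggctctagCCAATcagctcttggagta
Pcna: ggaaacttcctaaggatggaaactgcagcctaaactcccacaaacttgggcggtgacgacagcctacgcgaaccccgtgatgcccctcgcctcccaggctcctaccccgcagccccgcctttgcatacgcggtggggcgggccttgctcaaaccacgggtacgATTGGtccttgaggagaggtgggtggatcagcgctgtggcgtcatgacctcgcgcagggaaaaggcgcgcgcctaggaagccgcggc
The CHR occurred in 36.4% of the 44 mitosis genes with a promoter in the table and in 12.8% of all 9895 tested genes with one. The CCAAT box occurred in 72.7% and 40.5% of them. Of the 43 DNA replication genes with a promoter, 18.6% held the CHR and 65.1% the CCAAT box. Among the 309 genes that fell and had a promoter the shares were 14.2% and 41.7%, near those of all genes. These are descriptions of letters and not of binding.

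Genes of ribosome assembly and protein turnover passed in 8.06% and 8.82% of those tested, against 5.2% of all genes. Of 62 tested genes of ribosome biogenesis, 4 fell and 1 rose, while 34 had a negative and 28 a positive difference, with a median of -0.11. Nop58, a core protein of the particles that modify ribosomal RNA, had the largest fall among the named genes, with 6.64, 8.91 and 7.80 in co-culture and 13.05 and 12.40 in medium control. It fell by 4.94 ± 0.78 (limma, adjusted p = 0.014), and its day 0 values of 10.79, 8.26 and 9.47 overlapped those of co-culture. Ltv1, needed to mature the small ribosomal subunit, fell by 3.59, and Wdr12, which acts on the large one, by 1.31. Ftsj3 fell by 2.46. Ubtf, which opens ribosomal DNA for transcription, rose by 1.83. Of 34 proteasome and ubiquitin genes, 3 fell and 25 had a negative difference, with a median of -0.45. Psma4, a ring subunit of the proteasome core, measured 10.11, 10.40 and 10.57 in co-culture and 12.31 and 12.01 in medium control (limma, adjusted p = 0.033). Psmd12, of the regulatory lid, fell by 1.61, and Psma3 by 1.27, with its other probe set at 0.92.

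The few mitochondrial genes that passed in the fit over 13 arrays were higher. Of 64 mitochondrial ribosomal protein genes 3 rose (4.69%) and none fell, with a median of 0.35. Of 52 oxidative phosphorylation genes 5 rose (9.62%) and none fell, with a median of 0.28. Among all genes 2.15% rose. Mrps24 had 11.26, 11.32 and 11.64 in co-culture and 9.20 and 8.93 in medium control, a difference of 2.34 ± 0.51 (limma, adjusted p = 0.037). Atp5d, a subunit of the ATP synthase, had 12.61, 13.04 and 12.95 in co-culture, against 11.45 and 11.13 in medium control (limma, adjusted p = 0.017). Ndufb2 and Ndufa6, of respiratory complex I, rose by 1.79 and 1.30, and Cox6b1, of complex IV, by 1.10. Day 0 values of Ndufb2, at 11.03 to 12.28, and Ndufa6, at 12.15 to 12.86, overlapped those of co-culture. Mrps12 rose by 1.48 and Mrps6 by 0.93, the last with another probe set at -0.46. Without day 2 replicate 1, 8 ribosomal genes rose and 2 fell, and 9 oxidative phosphorylation genes rose and 1 fell. In that fit 7.61% of all genes rose and 9.62% fell.

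Stress and inflammatory genes held the largest rise among the named genes. Of 42 tested acute phase and NF-kB genes, 2 rose (4.76%, against 2.15% of all genes) and none fell, with a median of 0.33. Without day 2 replicate 1, 4 rose and 2 fell, where 7.61% and 9.62% of all genes did. Saa3, an acute phase serum amyloid, measured 12.20, 11.41 and 9.0 in co-culture and 4.26 and 5.41 in medium control, and it rose by 6.03 ± 1.32 (limma, adjusted p = 0.037). Replicate 3 was lowest, and still above the highest day 0 value of 7.18. Nfkbia, which holds NF-kB in the cytoplasm and is itself its target, had 13.20, 13.14 and 13.15 in co-culture, against 11.58 and 11.87 in medium control (limma, adjusted p = 0.048), and its 5 probe sets differed by 0.39 to 3.71.
The 250 bases before the start of Nfkbia, at chr12:55492648-55492897 on the minus strand (RefSeq, GRCm38.p6), are shown because a match to the NF-kB motif, in capitals, lies close to its start. It begins 29 bases before the start.
Nfkbia: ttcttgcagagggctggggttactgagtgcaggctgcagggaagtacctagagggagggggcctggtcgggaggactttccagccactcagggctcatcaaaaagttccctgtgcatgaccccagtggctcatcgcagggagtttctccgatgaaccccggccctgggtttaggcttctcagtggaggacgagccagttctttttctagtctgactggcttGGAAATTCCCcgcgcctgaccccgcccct
A match to this motif on either strand occurred in 50% of the 32 genes of the list with a promoter in the table and in 10.6% of all 9895. Among the 225 genes that rose and had a promoter, 9.78% held it. Other stress genes were few. Atf4, which drives amino acid genes, had 12.39, 12.91 and 13.08 in co-culture and 10.13 and 11.07 in medium control (limma, adjusted p = 0.038), but its other probe sets reached -0.93. Cebpb, a transcription factor of the acute phase, rose by 1.09, and Bbc3, a p53 target that promotes cell death, by 1.41. It was the only p53 target of 32 to pass. Cdkn1a, the p53-driven cell cycle inhibitor, measured 13.51, 13.83 and 13.73 in co-culture and 13.15 and 12.75 in medium control (limma, adjusted p = 0.695).

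**Figure D2:**
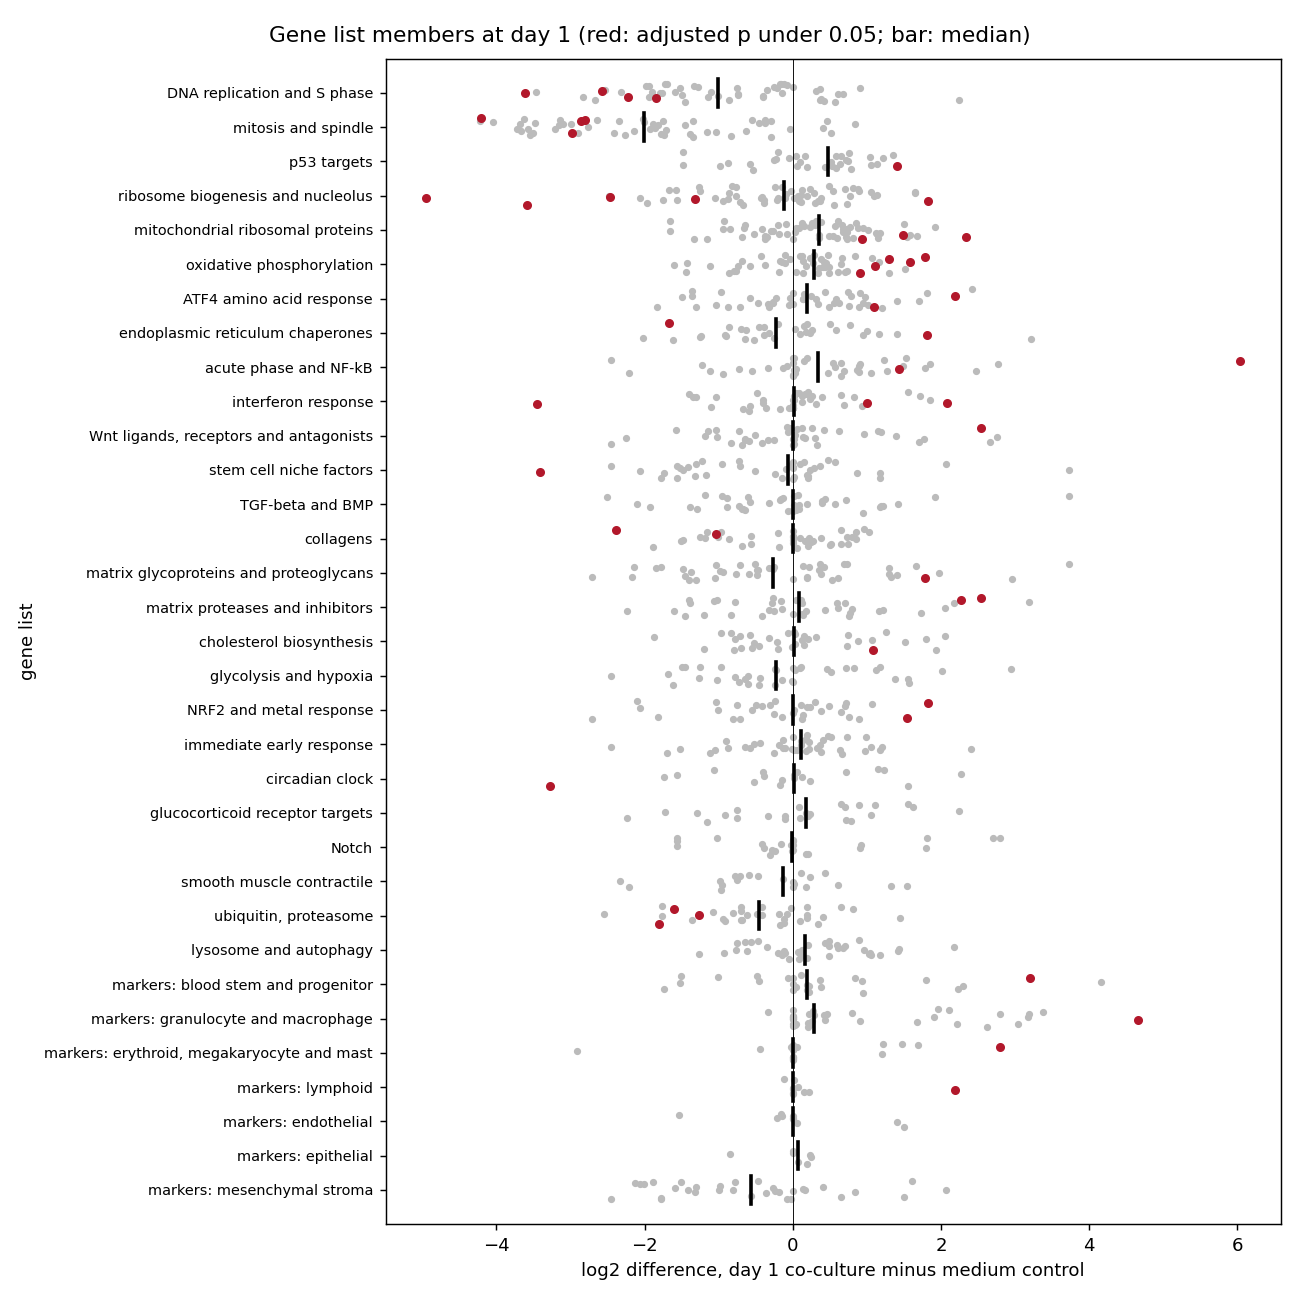
Log2 difference, co-culture minus medium control, of each tested member of the 33 gene lists. Red points passed an adjusted p of 0.05, grey points did not, and bars are medians, which are lowest for mitosis and spindle at -2.00 and DNA replication at -1.01.

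Signals between stroma and blood cells gave few calls. Of 43 genes of Wnt ligands, receptors and antagonists, 1 rose and none fell, and of 42 niche factors 1 fell and none rose. Wnt2 had 5.19, 5.13 and 5.53 in co-culture and 2.76 and 2.72 in medium control, and it rose by 2.54 ± 0.26 (limma, adjusted p = 0.003). Day 0 arrays measured 2.67 to 2.72. At day 2 Wnt2 was at 2.71, 2.77 and 3.57, and at day 3 at 2.71 and 2.69. Igf1, a growth factor for stem and stromal cells, measured 4.47, 4.29 and 4.37 in co-culture, against 7.68 and 7.88 in medium control, and all of its 4 probe sets fell (limma, adjusted p = 0.043). Its day 0 values ran from 4.62 to 7.52, so that only medium control was above them all.

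The main retention factors did not pass. Cxcl12 had 10.77, 9.94 and 9.67 in co-culture and 12.10 and 12.28 in medium control, a difference of -2.06 ± 0.72 (limma, adjusted p = 0.136, and 0.045 without day 2 replicate 1). Vcam1 had 8.68, 8.32 and 8.08 in co-culture and 10.89 and 10.72 in medium control (limma, adjusted p = 0.205, and 0.009 without day 2 replicate 1). Of the 3 probe sets of Vcam1, 1 passed on its own, and their differences ran from -2.45 to -0.64. Kitl measured 10.66, 9.42 and 9.56 in co-culture and 9.77 and 10.17 in medium control, and the groups overlapped, while another probe set of Kitl differed by -1.98. Wnt5a and Sfrp1, a ligand and an antagonist of Wnt signals, differed by -0.33 and -0.72 with standard errors of 1.34 and 1.90, and the probe sets of Sfrp1 ran from -2.43 to 0.14. Ccn2, a matrix protein induced by TGF-beta, was at 13.46, 14.17 and 13.86 in co-culture and 13.62 and 13.61 in medium control, against 10.06 to 10.63 at day 0.

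**Figure D3:**
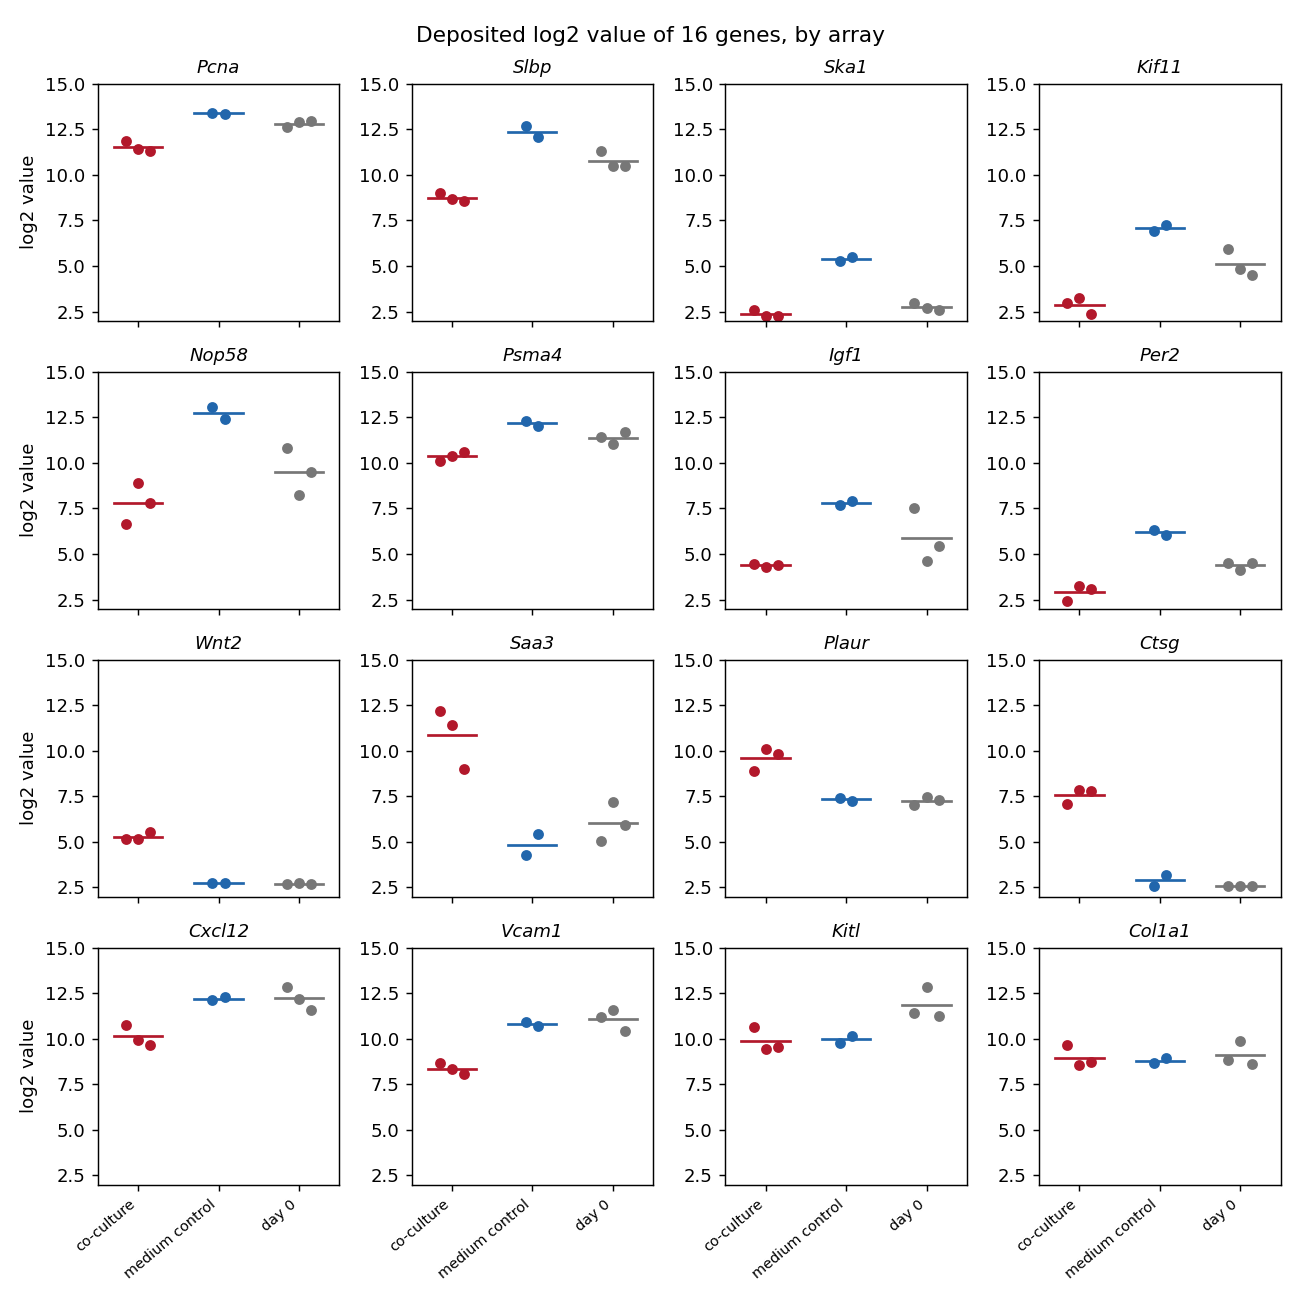
Log2 values of 16 genes in each array, with points for arrays and lines for group means, for co-culture, medium control and day 0. Wnt2, Saa3, Plaur and Ctsg are higher in all 3 co-culture arrays than in both medium control arrays, and Kitl and Col1a1 overlap.

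Matrix genes passed no more often than all genes, of which 5.2% did. Of 40 collagen genes 2 fell and none rose, of 40 matrix proteases and inhibitors 2 rose, and of 46 matrix glycoproteins and proteoglycans 1 rose. Col11a1, a fibrillar collagen, was at the lowest value of 2.28 in all co-culture and day 0 arrays and at 3.26 and 3.39 in medium control, so that it fell by at least 1.04 (limma, adjusted p = 0.013). Col4a6, of basement membranes, fell by 2.38. Col1a1 did not pass, with 9.64, 8.55 and 8.70 in co-culture and 8.66 and 8.93 in medium control. Plaur, the receptor that focuses urokinase on the cell surface, measured 8.88, 10.12 and 9.80 in co-culture and 7.43 and 7.24 in medium control, and it rose by 2.27 ± 0.37 (limma, adjusted p = 0.014). Mmp23, a metalloprotease, rose by 2.54, although day 0 values of 9.33 to 11.29 overlapped those of co-culture. Thbs2, a matrix protein that binds cell receptors, rose by 1.78, with another probe set at -0.20. No gene of TGF-beta and BMP signalling passed among 41. Without day 2 replicate 1, 1 of these rose and 3 fell, where 7.61% and 9.62% of all genes did.

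Single genes of other pathways passed as well. Per2, a repressor in the circadian clock, had 2.40, 3.25 and 3.10 in co-culture and 6.32 and 6.05 in medium control, with 4.13 to 4.53 at day 0, and it fell by 3.27 ± 0.43 (limma, adjusted p = 0.009). It was 1 of 19 clock genes, and no other passed. Eif2ak2, the interferon-induced kinase that stops translation, fell by 3.45, while Ifi35, an interferon-induced protein, and Ifnar2, a chain of the type I interferon receptor, rose by 2.09 and 1.00. Day 0 values of Eif2ak2, at 5.32, 2.51 and 2.65, overlapped the 2.65 to 2.88 of co-culture. Gss, which makes glutathione, and Keap1, which holds NRF2 in check, rose by 1.82 and 1.54. Mvd, of cholesterol synthesis, was at its lowest value of 3.67 in both medium control arrays and rose by at least 1.09. Sec61b, of the channel into the endoplasmic reticulum, rose by 1.81, and Ssr1, a protein beside that channel, fell by 1.66, with other probe sets up to 0.03.

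Where a gene had several probe sets past the filter, each was fitted. Among the 330 genes past the threshold that had several probe sets, 116 had a probe set of the opposite sign, against 2624 of 5467 over all genes tested. All probe sets passed the same way in 4 higher and 23 lower genes. The 4 were Tmem198b, Pom121, a nuclear pore protein, Khsrp, an RNA-binding protein, and Rhbdd3, with differences of 2.40, 1.98, 1.70 and 1.28. Of the lower genes, Tmem106c had 5.71, 5.71 and 5.73 in co-culture and 8.83 and 8.64 in medium control (limma, adjusted p = 0.006). Gmps, which makes the nucleotide GMP, measured 8.95, 9.57 and 9.08 in co-culture and 11.91 and 11.85 in medium control (limma, adjusted p = 0.011). Eri1, an exonuclease that trims histone mRNA ends, fell by 3.17, and Sdcbp, the scaffold syntenin, by 2.01.

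The 5 genes that passed in every fit with 1 compared array left out were chosen after their values were seen, and all were lower. They were Ska1, Rad18, Mlf1, Atf7ip2 and Slco1a5. Rad18, a ubiquitin ligase of damage tolerance, was at its lowest value of 3.37 in all co-culture arrays and at 5.79 and 5.80 in medium control, so that it fell by at least 2.42 (limma, adjusted p = 0.002). Atf7ip2 was likewise at 2.28 in co-culture and at 4.50 and 4.69 in medium control. Against day 0, co-culture differed by -0.11 for Rad18 and -0.09 for Atf7ip2, and medium control by 2.31 and 2.22, in comparisons that share arrays.

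Genes past the threshold differed in length by direction. Genes that rose had a median genomic length of 14.2 kb and genes that fell 33.5 kb, against 23.4 kb over all genes tested. Genes were split into 10 equal bins by length. In the shortest bin 3.28% of genes rose and 1.39% fell, and in the longest bin 0.738% rose and 3.61% fell. The median difference was 0.17 in the shortest and -0.05 in the longest bin. Base composition did not separate the groups, with a median promoter GC content of 60.0% in genes that rose, 60.8% in genes that fell and 60.0% over all genes. The spike-in and actin values above differed between the groups, while the Gapdh values overlapped. The part of any of these in the length pattern was not tested.

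**Figure D4:**
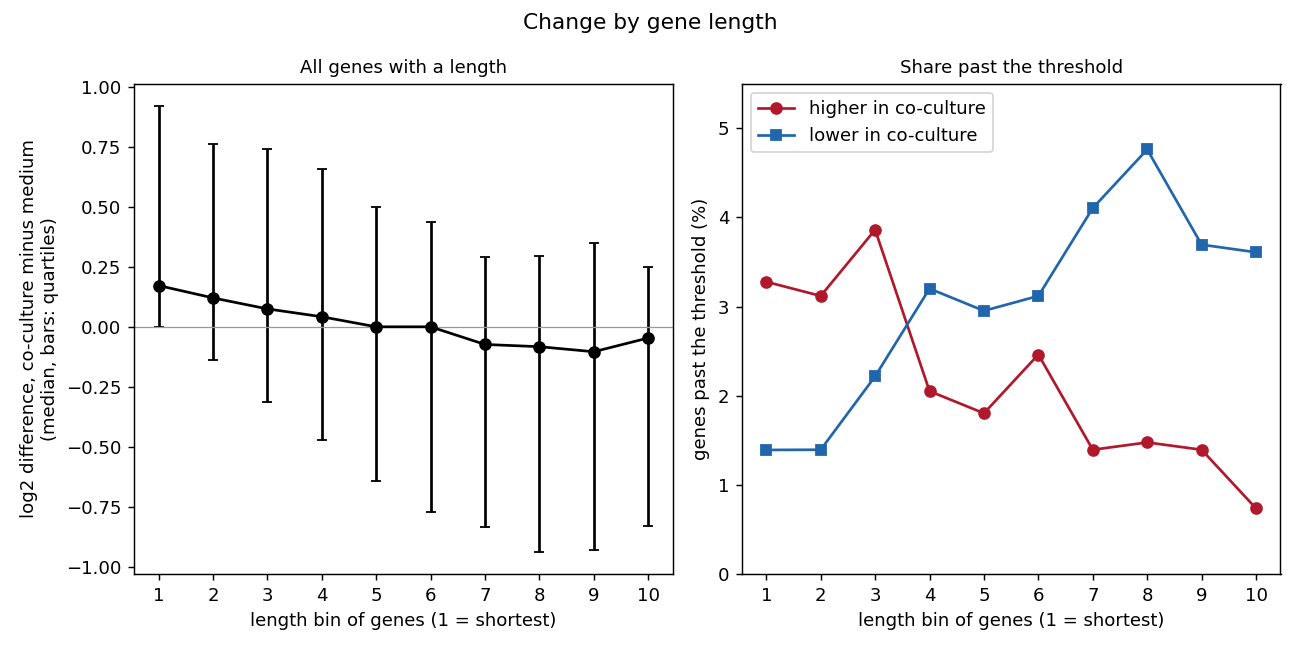
Left, median log2 difference, co-culture minus medium control, of genes in 10 equal bins by genomic length, with bars for quartiles. Right, percentage of each bin that rose or fell past the threshold, with 3.28% rising in the shortest bin and 0.738% in the longest.

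Markers of blood cells were also present in co-culture. Of 36 tested granulocyte and macrophage markers, 1 rose (2.78%, against 2.15% of all genes) and none fell. Without day 2 replicate 1, 7 rose, where 7.61% of all genes did. In both medium control arrays 19 of the 36 were at or below 2.38, the filter value, and could hardly fall. The 27 positive and 1 negative differences and the summed level therefore decide little. The summed log2 level of the 36 markers was 137.8, 162.1 and 149.3 in co-culture and 112.2 and 113.0 in medium control, with 111.8 to 117.6 at day 0. Ctsg, a protease of granulocyte granules, had 7.06, 7.84 and 7.77 in co-culture and 2.61 and 3.19 in medium control, and it rose by 4.65 ± 0.91 (limma, adjusted p = 0.027). Ctsg reached 9.33 to 13.14 at day 2 and 10.97 to 11.58 at day 3. Mpo, of the same granules, had 5.61, 6.33 and 6.50 in co-culture and 3.53 in both medium control arrays, its lowest value (limma, adjusted p = 0.140, and 0.003 without day 2 replicate 1). Elane, S100a9, Cybb and Adgre1 were at the lowest value of 2.28 in all 5 arrays. Kit was not tested, since both of its probe sets stayed at 2.28 to 2.38 in all 13 arrays.

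Other blood lineages gave 1 call each. Runx1, a transcription factor of blood formation, had 8.40, 9.55 and 8.96 in co-culture and 5.53 and 6.01 in medium control (limma, adjusted p = 0.031), but its 6 probe sets ran from -1.11 to 3.21. Itga2b, a platelet integrin, rose by 2.79, yet day 0 stroma, which had no LSK cells, measured 7.29 to 7.91, against 7.91 to 8.64 in co-culture. Vpreb1, a pre-B cell receptor chain, rose by 2.19, with day 0 values of 3.54 to 4.65. Ptprc, the pan-leukocyte marker, had 2.84, 4.13 and 2.69 in co-culture and the lowest value of 2.28 in medium control and day 0 (limma, adjusted p = 0.830). No endothelial or epithelial marker passed. The arrays were taken as stroma from their titles, and not from marker values. Of 42 mesenchymal markers on the array, 33 were tested. Fap and Lum were not tested, since their values reached at most 2.33 and 2.35 in any array. The median level of the 33 was 9.31, 8.24 and 8.08 in co-culture and 9.78 and 10.01 in medium control. Of the 33, none passed, 24 had a negative difference and the median difference was -0.57. Without day 2 replicate 1, 2 rose and 5 fell. The part of blood cell RNA in the differences above was not tested.

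**Figure D5:**
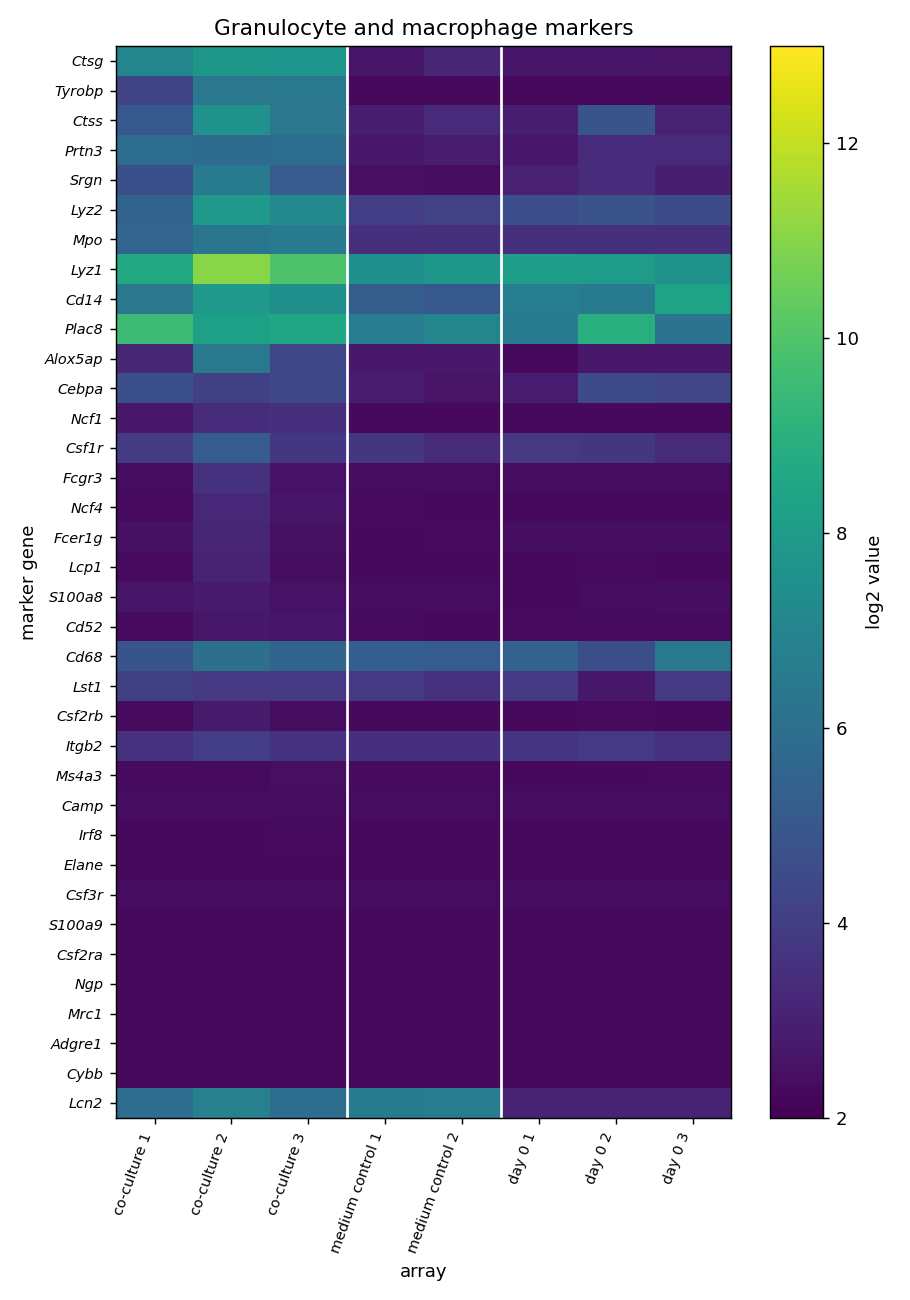
Log2 values of 36 granulocyte and macrophage markers, in rows ordered by their difference, in the arrays of co-culture, medium control and day 0. Ctsg is at 7.06 to 7.84 in co-culture and at most 3.19 in medium control, while markers such as Elane stay near 2.28.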

How the data were processed

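Expression was measured on Affymetrix mouse arrays in 13 samples. The deposited log2 intensities run from 2.28 to 15.74; the submitters' processing notes name RMA and GCRMA but not which made them. Of 45101 probe sets, 64 were controls, 34945 had 1 symbol, 932 several and 9160 none. A probe set entered where 2 or more arrays exceeded 2.38, the median of all values, and each gene took its single-symbol probe set of highest mean, giving 12205 genes. All 13 arrays entered 1 limma 3.58.1 fit with group means (R 4.3.3), with Benjamini-Hochberg adjustment and a threshold of 0.05. Groups at a probe set's lowest value give lower bounds. The 33 gene lists and the comparison were chosen with earlier results of these data known. Named genes were those with several probe sets all past the threshold, up to 4 per list by smallest p (2 as values where none passed) and 16 set genes; the text prints a part. Alternatives changed filter, scaling, probe set choice, variance model and arrays. The number of arrays limits the precision. Figures used Python 3.11.15.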

Additional observations from a re-analysis of the deposited data

How the results depend on the processing

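The count of 635 genes past the threshold stayed within 1.5 times with no filter (428), quantile normalization (692), averaged probe sets (678), a variance trend with robust fitting (433) and all 5 arrays without LSK cells as control (815). It moved to 385 with a filter at 5, 223 when centred on measured probe sets, 6423 with array weights, 4574 in the 5 compared arrays alone and 2103 without day 2 replicate 1, and it ranged from 7 to 114 with 1 compared array left out. The cause was not tested. Higher and lower genes numbered 372 and 320 under quantile normalization, 109 and 114 under centring and 204 and 474 with averaged probe sets, against 263 and 372. Centring moved the median difference of all genes to 0.17. No named gene past the threshold changed sign in these alternatives. With the replicate block 208 genes passed. Between the compared groups same-numbered arrays correlated at -0.15 in their deviations, a check that decides little because the deviations of 2 medium arrays mirror each other. Over all groups same-numbered pairs ran from -0.37 to 0.26, so a pairing by number was not established. The epithelial marker list had no tested member under the filter at 5.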
